A study of Mus musculus with 12 samples.

Results

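DNA methylation is described here for 7 mouse genes, C1qbp, Myadm, Gpnmb, Trf, Crybb1, Csrnp1 and Calr4, in B cells sorted by the number of divisions they had completed. The genes were selected on measured values: each had lower methylation in cells with CD138 than in cells without it after at least 8 divisions. They are 7 of 16816 genes with at least 5 covered CpGs, and their 194 CpGs are 7 for C1qbp, 16 for Myadm, 22 for Gpnmb, 39 for Trf, 40 for Crybb1, 62 for Csrnp1 and 8 for Calr4, of 760348 CpGs in all. Levels after at least 8 divisions are therefore given as a description with no test, and tests on these genes are limited to the earlier fractions.

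Splenic B cells (B220+, CD43-) of naive mice were labelled with a dye diluted by division (CFSE or CTV), moved into µMT hosts, which lack mature B cells of their own, and exposed there to LPS, a bacterial activator of B cells. The cells came from C57/BL6J mice according to the design text, while the strain field reads B6.SJL-Ptprca Pepcb/BoyJ; the animals were female and 8 weeks old. Day 3 after LPS, spleen cells of hosts 196 and 197 were sorted into undivided cells (Div0), cells with 1, 3 and 5 divisions (Div1, Div3, Div5), and cells with at least 8 divisions that lacked CD138 (Div8neg) or carried it (Div8pos). Each fraction has 1 library per host, 12 in all, read by reduced representation bisulfite sequencing, which samples CpGs near MspI and TaqI cutting sites. The last class has no upper limit of divisions, so a difference tied to CD138 cannot be told apart from one tied to further divisions. In the same way, a mean level cannot tell a loss in all cells from a complete loss in some of them.

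Methylated cytosines at CpGs are copied to the new strand after each replication by maintenance methyltransferase, and the mark is diluted when copying falls behind or removed through oxidation by TET enzymes. CD138, the proteoglycan syndecan-1, marks B cells that have become antibody-secreting plasmablasts. Dense CpG stretches at start sites are usually unmethylated, while CpGs in gene bodies and between genes are usually methylated in resting lymphocytes.

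The 7 genes do not form one pathway. C1qbp encodes a mitochondrial matrix protein that can bind complement C1q. Myadm encodes a membrane protein with MARVEL domains, found in myeloid cells. Gpnmb encodes a transmembrane glycoprotein of melanosomes and lysosomes, and Trf encodes transferrin, the iron carrier of plasma. Crybb1 encodes a beta-crystallin of the eye lens, Csrnp1 a cysteine- and serine-rich nuclear protein induced by AXIN1, and Calr4 a member of the calreticulin family of calcium-binding chaperones.

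Start-site sequence is shown for the members whose covered CpGs could be placed in it, to show which CpGs near the start were read. RefSeq (GRCm38.p6) held 15 windows for 6 of the 7 genes, each from 250 bases before to 50 bases after a start. The files use another build, mm9, so covered CpGs were placed only by their distance from the start as the files give it. The single covered CpG of Crybb1 in the window matched a CG with no shift, and the 4 covered CpGs of Csrnp1 matched 4 CGs of its first window together at 1 shift, 82 bases, the only one that placed all 4. The 250 bases upstream of each start follow, from chr5:112255570-112255819 (plus strand) and chr9:119984743-119984992 (minus strand), with the covered CG dinucleotides in capitals:
Crybb1: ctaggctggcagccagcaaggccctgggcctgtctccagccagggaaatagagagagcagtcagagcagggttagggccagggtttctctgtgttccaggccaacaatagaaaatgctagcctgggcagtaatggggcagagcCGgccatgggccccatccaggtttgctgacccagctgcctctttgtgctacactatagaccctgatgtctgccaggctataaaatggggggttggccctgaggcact
Csrnp1: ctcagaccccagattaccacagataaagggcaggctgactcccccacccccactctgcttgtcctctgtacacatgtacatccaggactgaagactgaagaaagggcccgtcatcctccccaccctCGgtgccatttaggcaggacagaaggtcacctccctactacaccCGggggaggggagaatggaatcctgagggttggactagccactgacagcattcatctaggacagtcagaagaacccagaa

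The capital CG of Crybb1, 107 bases before the start and the only CG in the stretch, lies in an MspI site (CCGG, the same on both strands). Its level was 72.7% and 87.5% in Div0 of hosts 196 and 197, 70.0% and 77.3% in Div8neg, and 65.5% and 72.5% in Div8pos. Of the capital CGs of Csrnp1, the first had 52.8% methylation in Div0 and 38.5% in Div8pos (means of 2 hosts), and the second, also in an MspI site, had 37.1% and 50.4%. The directions were opposite at these 2 Csrnp1 CGs, which is a description from 2 hosts and no test. At the other 2 covered CpGs of that window, outside the printed stretch, the hosts' ranges for Div0 and Div8pos overlapped. Their means were 56.9% and 51.4% in Div0, and 50.7% and 37.5% in Div8pos. CG content of the windows ran from 2 in Crybb1 to 45 in the third window of Csrnp1, against a median of 7 over 32851 windows of all genes. MspI sites were present in 5 of the members' 15 windows and in 52.8% of all windows, and TaqI sites (TCGA, the same on both strands) in 4 of 15 and 22%. These matches describe the letters only.

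Depth was 17969105 to 56775157 reads per library summed over CpGs, with a median coverage of 20 to 66 reads, and host 197 had the deeper library in every fraction. Each CpG had at least 10 reads in each library, and the members' CpGs had a median of 45. Promoter CpGs served as a check of the cell type. Of the B cell genes, Cd79a was at 7.96% and Cd22 at 26.9% in Div0, while T cell genes (Cd3e, Cd4, Lck), myeloid genes (Itgam, Spi1), the NK cell gene Ncr1 and the erythroid gene Slc4a1 were between 91.1% and 97.2%, and 11 of the 24 markers, Sdc1 (CD138) among them, had no covered promoter CpG. The plasma cell genes Prdm1 and Xbp1 were low throughout, at 5.59% and 1.86% in Div0, and Irf4 went from 29.3% in Div0 to 11.2% in Div8pos. Cd22 stood at 25.1% in Div8neg and 3.32% in Div8pos. The 7 measured genes of other cell types lay between 84.2% and 94.0% in Div8neg and between 64.0% (Lck) and 93.3% (Spi1) in Div8pos. The part of these values in the results below was not tested.

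A gene's level is the mean percent methylation over its CpGs. The 7 genes stayed near their undivided level through 5 divisions, were somewhat lower in Div8neg, and were lowest in Div8pos. Csrnp1 differed least between Div8pos and Div0. C1qbp was at 97.2% and 93.8% in Div0 of hosts 196 and 197, 91.9% and 92.4% in Div5, 78.1% and 71.9% in Div8neg, and 37.6% and 45.4% in Div8pos. Myadm was at 75.2% and 76.6% in Div0, 76.2% and 79.3% in Div5, 69.1% and 67.4% in Div8neg, and 35.9% and 38.9% in Div8pos. In all 7 genes both Div8pos libraries lay below all 10 other libraries, which the choice of the genes favours.

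Gpnmb was at 90.2% and 90.5% in Div0, 92.2% and 90.2% in Div5, 87.3% and 85.3% in Div8neg, and 67.2% and 62.1% in Div8pos. Trf was at 89.5% and 91.3% in Div0, 91.8% and 90.5% in Div5, 86.2% and 85.6% in Div8neg, and 72.5% and 73.6% in Div8pos. These 2 genes had high levels in all earlier fractions and the smallest differences between Div8neg and Div0. Crybb1 was at 64.4% and 60.9% in Div0, 59.2% and 58.3% in Div5, 52.2% and 51.2% in Div8neg, and 30.7% and 29.5% in Div8pos. Csrnp1 was at 50.7% and 48.0% in Div0, 46.6% and 47.3% in Div5, 42.1% and 44.7% in Div8neg, and 35.4% and 34.6% in Div8pos. Calr4 was at 84.4% and 83.7% in Div0, 82.8% and 79.6% in Div5, 77.2% and 67.7% in Div8neg, and 45.1% and 47.7% in Div8pos. In all 7 genes both Div8pos libraries were lower than both Div8neg libraries, as follows from how the genes were chosen. Differences between Div8pos and Div8neg were -21.5 and -21.7 points in the 2 hosts for Crybb1, and -40.5 and -26.6 points for C1qbp.

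**Figure D1:**
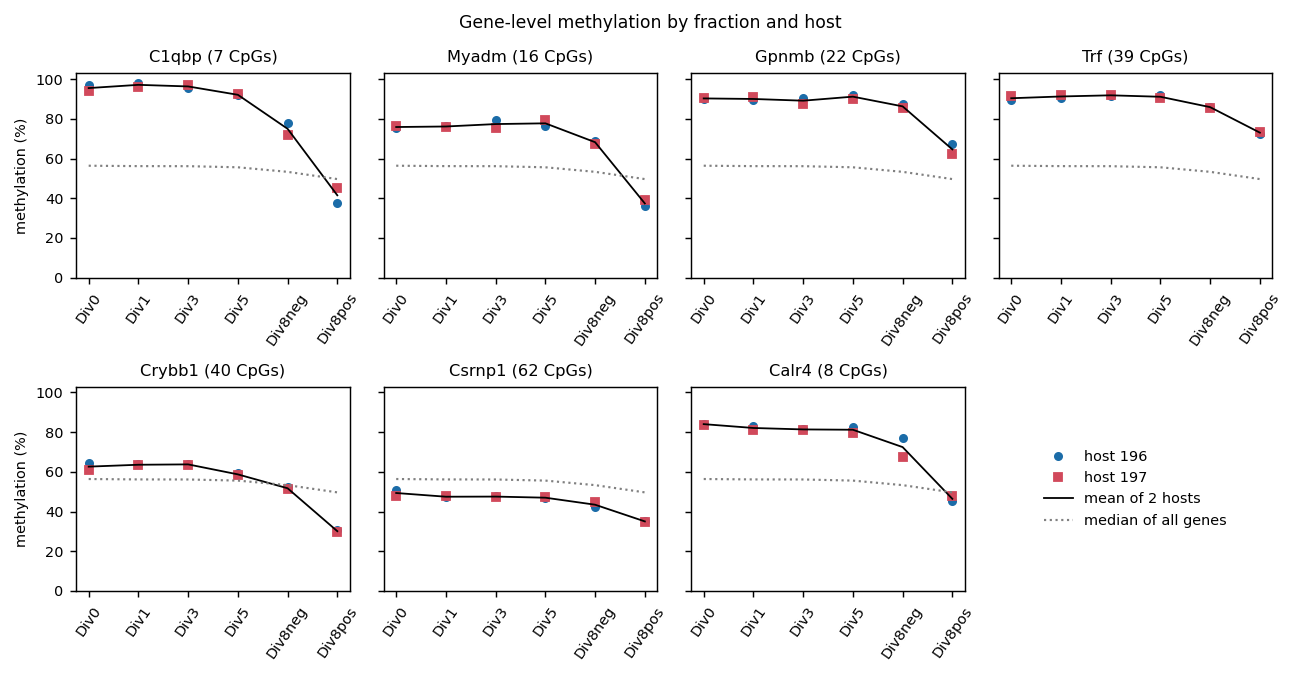
Gene-level methylation in percent (vertical axis) in the 6 fractions (horizontal axis) for each of the 7 genes; points are the 2 hosts, the solid line their mean, and the dotted line the median over 16816 genes. The levels stay near that of Div0 through Div5 and are lowest in Div8pos, at 41.5% for C1qbp and 73.1% for Trf.

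Divisions 1 to 5, which the choice of the genes did not use, gave no call. With limma and Benjamini-Hochberg adjustment over all genes (adjusted p under 0.05 and at least 10 points), 0 of the 7 genes were lower in Div1, where 0% of all genes were, 0 in Div3, also against 0%, and 0 in Div5, against 0.101%. At an unadjusted p under 0.05, limma gave 0, 0 and 1 of the 7 genes in these comparisons, the 1 being lower. The share of all genes at that threshold was not computed. Crybb1 differed by -3.90 points between Div5 and Div0 (SE 1.06, limma adjusted p = 0.194) and C1qbp by -3.39 points (SE 2.57, limma adjusted p = 0.635). Myadm, Gpnmb and Trf had differences above 0, of 1.86, 0.89 and 0.74 points, and Csrnp1 and Calr4 differed by -2.36 and -2.83 points. The median over all genes was -0.68 points. From the largest loss between Div5 and Div0, Crybb1 stood at place 508, C1qbp 721, Calr4 1107 and Csrnp1 1649 of 16816 genes. Trf, Gpnmb and Myadm stood at places 15415, 15655 and 16430.

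The trend over divisions 0 to 5 in 8 libraries was called for 0 of the 7 genes, against 0.107% of all genes. An unadjusted limma p under 0.05 was seen in 3 of the 7, all with a loss. The share of all genes at that threshold was not computed. The fitted change from 0 to 5 divisions was -3.75 points for Crybb1 (SE 1.53, limma adjusted p = 0.264), -3.64 for C1qbp (SE 1.49, adjusted p = 0.267) and -2.49 for Calr4 (SE 1.04, adjusted p = 0.274), and 2.0 for Myadm (SE 1.21, adjusted p = 0.434).

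Beyond 5 divisions the genes separated by how much of their difference was already present without CD138. Div8neg differed from Div0 by -20.5 points for C1qbp (-19.1 and -21.9 in hosts 196 and 197), -11.6 for Calr4, -10.9 for Crybb1, -7.65 for Myadm, -5.90 for Csrnp1, -4.49 for Trf and -4.0 for Gpnmb. C1qbp, Crybb1 and Calr4 met the limits of a call (3 of 7, against 1.34% of all genes). Calr4 differed by -7.13 points in host 196 and -16.0 in host 197. With 1 library left out, differences ran from -16.3 to -6.82 points for Calr4 and -12.6 to -9.18 for Crybb1. These ranges cross the limit of 10 points, while that of C1qbp (-23.6 to -17.4) does not. Div8pos differed from Div0 by -54.0 points for C1qbp, -38.5 for Myadm, -37.7 for Calr4, -32.5 for Crybb1, -25.7 for Gpnmb, -17.3 for Trf and -14.3 for Csrnp1, and all 7 met the limits, against 16% of all genes. Both counts share libraries with the difference the genes were chosen on and are descriptions. Medians over all genes were -2.58 and -5.80 points.

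The difference the genes were chosen for, Div8pos against Div8neg, was -33.5 points for C1qbp, -30.9 for Myadm, -26.1 for Calr4, -21.7 for Gpnmb, -21.6 for Crybb1, -12.9 for Trf and -8.41 for Csrnp1. All but Csrnp1 met the limits (6 of 7, against 1.94% of all genes), a count that follows from the choice of the genes and is no test of them. In the order of all 16816 genes from the largest loss, C1qbp stood at place 2, Myadm 3, Calr4 6, Gpnmb 9, Crybb1 10, Trf 108 and Csrnp1 712. The median over all genes was -2.99 points.

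The part of the Div8pos loss already seen in Div8neg was 15.6% for Gpnmb, 19.9% for Myadm, 25.9% for Trf, 30.7% for Calr4, 33.5% for Crybb1, 38.0% for C1qbp and 41.2% for Csrnp1. Among the 2678 other genes that were lower in Div8pos than in Div0 the median was 46.3%, with quartiles of 37.1% and 56.2%. The genes described here were chosen for lower levels in Div8pos than in Div8neg, which favours a small part. Their values below that median are therefore a description and no test of them. The hosts differed most for Csrnp1, at 56.1% in host 196 and 24.3% in host 197, and for Calr4, at 18.2% and 44.4%, so the place of these 2 genes in that order depends on the host.

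**Figure D2:**
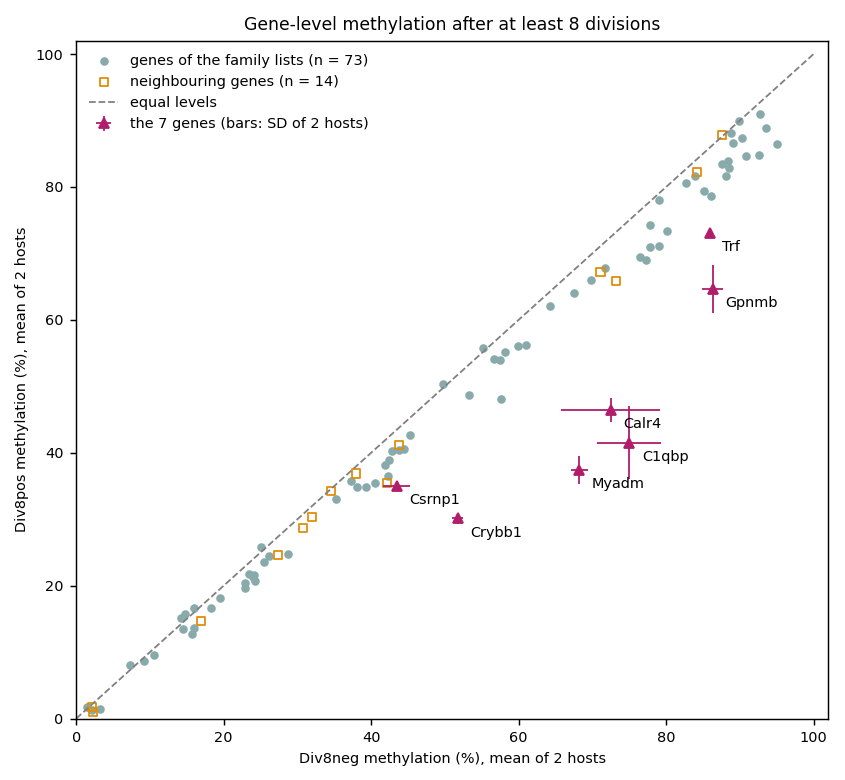
Gene-level methylation in Div8pos (vertical axis, percent) against Div8neg (horizontal axis, percent), means of 2 hosts, for the 7 genes, 73 genes of their families and pathways, and 14 neighbouring genes; bars are SDs of the 2 hosts and the dashed line marks equal levels. C1qbp, Myadm, Calr4, Gpnmb and Crybb1 sit under the line by differences of -21.6 to -33.5 points and Csrnp1 close to it.

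Single CpGs were tested with a quasi-binomial model of their reads, adjusted over all CpGs (adjusted p under 0.05 and at least 20 points). Of the members' 194 CpGs, 0 were lower in Div1 (0% of all CpGs), 0 in Div3 (0.027%) and 1 in Div5 (0.123%). With no adjustment this model gave a p under 0.05 at 10 CpGs in Div1 (6 of them lower), 11 in Div3 (5 lower) and 23 in Div5 (17 lower). The share of all CpGs at that unadjusted threshold was not computed. The CpG lower in Div5 lies 11478 bases upstream of Csrnp1, at position 119905255 of chromosome 9 (mm9), and was named because it is the only one. It read 65.4% and 39.7% in Div0, 60.0% and 54.5% in Div1, 35.7% and 37.3% in Div3, 23.5% and 14.8% in Div5, 8.00% and 23.1% in Div8neg, and 0% and 6.73% in Div8pos. The difference between Div5 and Div0 was -33.4 points (adjusted p = 0.0479); with the host as a block the adjusted p was 0.0734, and without the Div0 library of host 196 the difference was -20.6 points (adjusted p = 0.628). The call was also lost without the Div5 library of host 196 (-37.8 points, adjusted p = 0.0525) or of host 197 (-29.0 points, adjusted p = 0.878), so it rests on single libraries.

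The other counts are descriptions. In Div8neg against Div0, 14 of the 194 CpGs were lower, against 0.781% of all CpGs, 88 in Div8pos against Div0 (6.61%), and 58 in Div8pos against Div8neg (0.636%). The last count was made up of 3 of 7 CpGs in C1qbp, 6 of 16 in Myadm, 10 of 22 in Gpnmb, 12 of 39 in Trf, 13 of 40 in Crybb1, 10 of 62 in Csrnp1 and 4 of 8 in Calr4. Without the Div8neg library of host 197 the 58 became 25 and the 14 became 0, without the Div8pos library of host 197 the 58 became 30, and without the Div0 library of host 197 the 14 became 1. The counts over all CpGs moved with them: 4833 became 832 and 1127 without the Div8neg or Div8pos library of host 197, and 5935 became 1821 and 1046 without the Div8neg or Div0 library of that host.

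The CpGs were also grouped by their starting level. Among 121 CpGs with at least 80% methylation in Div0, 46 were lower in Div8pos than in Div8neg, and among 36 CpGs between 20% and 80%, 12 were. Both counts follow from the choice of the genes. The share by starting level over all CpGs was not computed, and over all CpGs of any level it was 0.636%. The 37 CpGs under 20%, 24 of them in Csrnp1 and 10 in Crybb1, could not fall by 20 points and held 0 calls; their mean was 4.50% in Div0 and 2.57% in Div8pos. At the other end, 12 CpGs went from at least 20% in Div0 to under 10% in Div8pos, 9 of them in Crybb1, 2 in the upstream pair of Csrnp1 and 1 upstream of Myadm. The choice of the genes favours this count too, and its share over all CpGs was not computed.

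**Figure D3:**
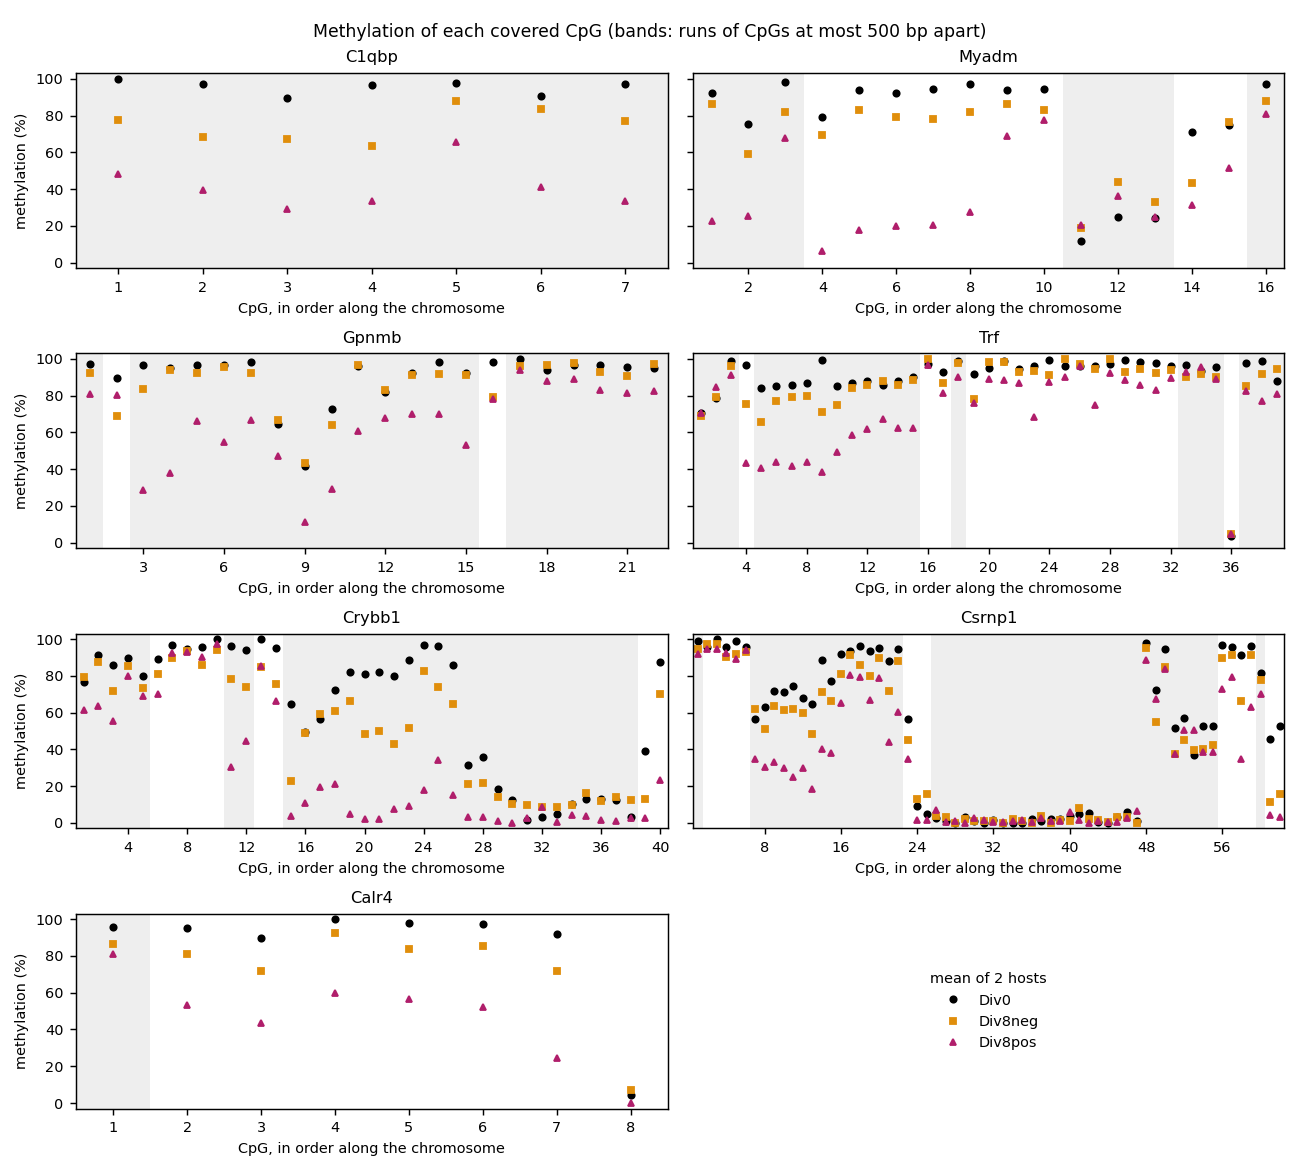
Methylation in percent (vertical axis, mean of 2 hosts) of each covered CpG in order along the chromosome (horizontal axis) in Div0, Div8neg and Div8pos, 1 panel per gene; grey and white bands separate runs of CpGs at most 500 bp apart. Div8pos falls away from Div0 in some runs only, such as the first 2 runs of Myadm and the exonic run of Gpnmb, while the low run of Csrnp1 stays low.

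By position, the 194 CpGs formed 36 runs of CpGs at most 500 bp apart, 26 of them with at least 2 CpGs. In 11 of these 26 Div8pos was at least 20 points lower than Div8neg. They lay in introns, exons, a 5′ UTR, upstream stretches and past the 3′ end, and the nearest CpG of any of them was 1890 bases from a start site. Coordinates below are mm9.

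All 7 covered CpGs of C1qbp form 1 intronic run on chromosome 11, from 70794199 to 70794637, 1890 to 2328 bases after the start. Its levels are those of the gene, and at each of the 7 CpGs Div8pos was lower than Div8neg in both hosts, and the smallest mean difference was -22.3 points. Means of the 7 CpGs in Div8pos ran from 29.0% to 65.7%.

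In Myadm the largest differences between Div8pos and Div8neg lay upstream. A run of 7 CpGs, 3818 to 4124 bases before the start (chromosome 7, 3284914 to 3285220), was at 92.1% and 92.1% in Div0 of hosts 196 and 197, 90.0% and 90.7% in Div5, 83.0% and 77.3% in Div8neg, and 31.2% and 36.8% in Div8pos. Of the runs of all 7 genes this had the largest difference between Div8pos and Div8neg, -46.2 points. The 3 CpGs 13917 to 14187 bases before the start were at 88.5% in Div0, 75.7% in Div8neg and 38.5% in Div8pos. The intronic pair 2375 and 2416 bases after the start went from 73.0% in Div0 to 59.8% in Div8neg and 41.4% in Div8pos, and the hosts differed, at -36.8 and -0.16 points between the last 2. The 3 CpGs 158 to 218 bases after the start, in the 5′ UTR, were at 19.4% and 21.1% in Div0, 38.1% and 46.2% in Div5, 25.9% and 38.1% in Div8neg and 29.0% and 25.2% in Div8pos. The difference of 21.9 points between Div5 and Div0 was above 0 in both hosts, and none of the 3 passed the test in Div5 (adjusted p of 0.447, 0.660 and 0.711).

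In Gpnmb the difference lay mainly in a run of 13 exonic and intronic CpGs, 10669 to 11538 bases after the start (chromosome 6, 48997187 to 48998056). It was at 87.0% and 85.9% in Div0, 89.2% and 88.2% in Div5, 84.1% and 82.9% in Div8neg, and 55.8% and 46.3% in Div8pos. Only 8.22% of the Div8pos loss was present in Div8neg, the smallest such part among the 11 runs. All 10 CpGs of Gpnmb called between Div8pos and Div8neg were in this run. The 6 CpGs 4626 to 4812 bases past the 3′ end went from 96.3% in Div0 to 95.3% in Div8neg and 86.3% in Div8pos.

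In Trf the difference lay mainly in 11 intronic CpGs within 183 bases (chromosome 9, 103115172 to 103115354), for which the nearest start site in the files belongs to another gene. The run was at 86.0% and 89.5% in Div0, 95.1% and 90.5% in Div5, 79.1% and 81.0% in Div8neg, and 50.0% and 53.7% in Div8pos, with a median coverage of 104 reads. It held 11 of the 12 Trf CpGs that met the limits between Div8pos and Div8neg. A lone intronic CpG near it was at 75.4% in Div8neg and 43.5% in Div8pos. Start-ward of these, 14 CpGs 3247 to 3979 bases after the start went from 94.1% in Div8neg to 85.5% in Div8pos, and the CpG 325 bases before the start was at 3.70% in Div0 and 4.55% in Div8pos.

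Crybb1 had the lowest gene level of the 7 in Div8pos, 30.1%. Its run of 24 CpGs around the 3′ end (chromosome 5, 112698257 to 112700257), from the last intron to 1654 bases past the gene, was at 47.9% and 43.2% in Div0, 40.2% and 39.3% in Div5, 35.8% and 33.5% in Div8neg, and 8.72% and 6.22% in Div8pos. Of these 24 CpGs, 14 were lower in Div8pos than in Div0 and 10 began under 20%. An intronic pair 7952 and 8000 bases after the start was at 95.0% in Div0, 76.2% in Div8neg and 37.3% in Div8pos. The 5 promoter CpGs, 107 to 460 bases before the start and including the CG in capitals above, went from 84.3% and 85.3% in Div0 to 93.2% and 90.2% in Div5, then 78.3% and 80.8% in Div8neg and 64.7% and 67.1% in Div8pos. The downstream pair 2424 to 2584 bases past the 3′ end went from 63.2% in Div0 to 49.0% in Div5, 41.5% in Div8neg and 12.9% in Div8pos. Its difference between Div5 and Div0 was -20.9 points in host 196 and -7.38 in host 197. An exonic and intronic run of 5 CpGs 3285 to 3471 bases after the start kept 88.9% in Div8neg and 88.7% in Div8pos.

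Csrnp1 held the most CpGs and the most varied runs. In 16 exonic and intronic CpGs, 3530 to 3839 bases after the start (chromosome 9, 119882612 to 119882921), levels were 83.6% and 77.5% in Div0, 73.0% and 76.6% in Div5, 67.2% and 74.6% in Div8neg, and 47.4% and 46.8% in Div8pos. This run held 9 of the gene's 10 CpGs lower in Div8pos than in Div8neg. Upstream, 4 CpGs 3277 to 3454 bases before the start went from 95.0% in Div0 to 84.5% in Div8neg and 62.5% in Div8pos. A run of 3 CpGs 2066 to 2219 bases before the nearest start, in promoter and intron, was at 23.3%, 24.5% and 12.6%. The run of 30 CpGs at the start site, which includes the CGs in capitals above, was at 18.5% in Div0, 16.0% in Div8neg and 16.5% in Div8pos, and 22 of the 30 began under 20%.

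The upstream pair of Csrnp1 that holds the CpG lower in Div5 had another course. It was at 49.0% in Div0, 59.4% in Div1, 37.2% in Div3, 20.1% in Div5, 13.5% in Div8neg and 3.83% in Div8pos, and 78.6% of its Div8pos loss was present in Div8neg.

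In Calr4 the difference lay mainly in 7 CpGs that the files class as intron or 5′ UTR, 2837 to 3461 bases after the start (chromosome 4, 108911075 to 108911699). The run was at 83.0% and 81.7% in Div0, 81.0% and 77.0% in Div5, 75.6% and 65.3% in Div8neg, and 40.9% and 41.9% in Div8pos, and 1 of its CpGs began under 20%. The CpG 14274 bases upstream was at 86.5% in Div8neg and 81.1% in Div8pos, with the hosts on opposite sides (-14.2 and 3.38 points).

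**Figure D4:**
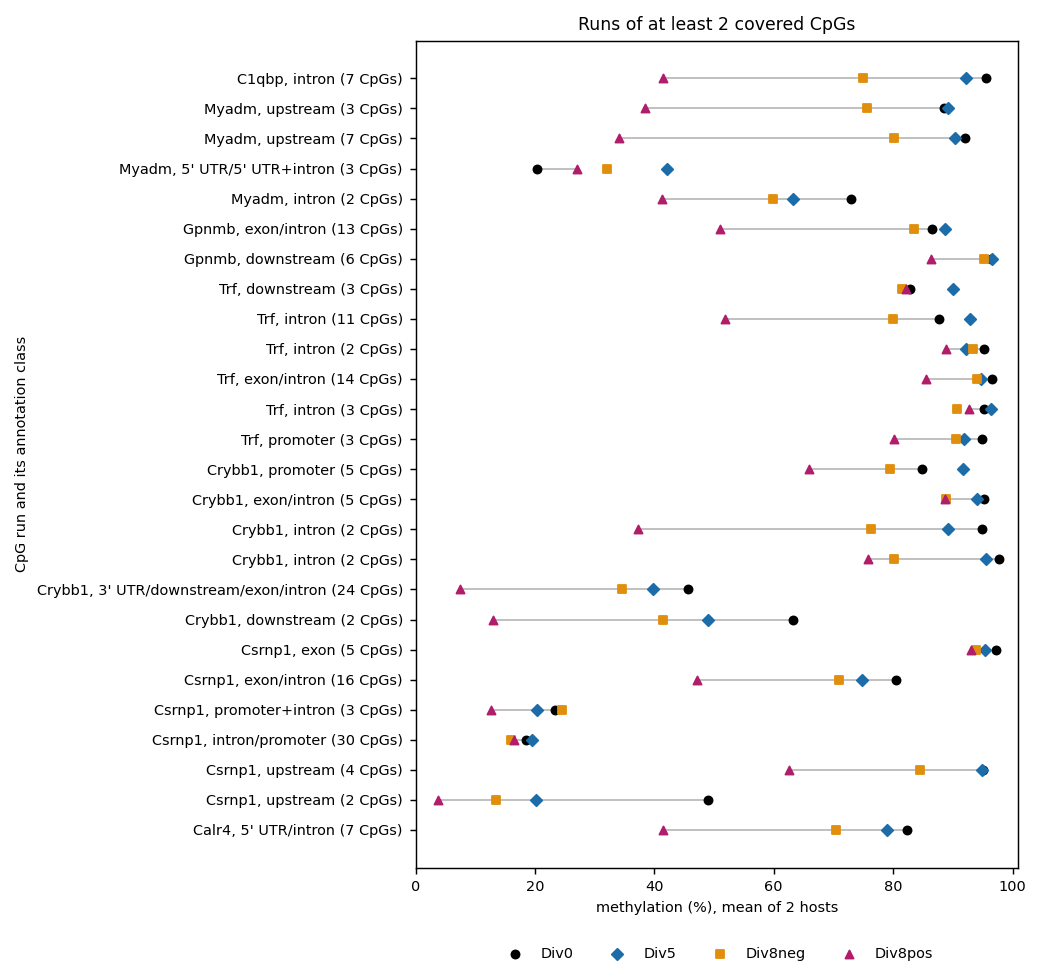
Methylation in percent (horizontal axis, mean of 2 hosts) of the 26 runs with at least 2 covered CpGs, 1 per row with its gene, annotation class and number of CpGs, in Div0, Div5, Div8neg and Div8pos; grey lines join Div0 and Div8pos. Div8pos is at least 20 points lower than Div8neg in 11 of the 26 runs. At Div5 the upstream pair of Csrnp1 stands at 20.1% against 49.0% in Div0, and the 5′ UTR run of Myadm at 42.2% against 20.3%.

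The Group table of the deposit, which pools the hosts, holds 400 CpGs of these genes, 206 of them outside the table used so far because at least 1 library had fewer than 10 reads. Over the 206, pooled methylation was 65.0% in Div0, 59.7% in Div8neg and 48.7% in Div8pos, and 46 were at least 20 points lower in Div8pos than in Div8neg. The choice of the genes favours this count, and the share of all pooled CpGs at that limit was not computed. In Crybb1, 16 further CpGs around the 3′ end were at 75.6% in Div0, 52.0% in Div8neg and 20.6% in Div8pos. For C1qbp, 13 CpGs 260 to 848 bases after the start were at 9.69%, 5.47% and 3.10%, and 6 intronic CpGs 3406 to 3633 bases after it were at 97.1%, 94.4% and 92.0%, while 3 CpGs between 2220 and 2666 bases were at 56.9%, 37.2% and 10.2%. In Trf, 10 CpGs around the lone intronic CpG were at 62.8%, 64.3% and 38.2%, and 4 CpGs beside the intronic run were at 92.1%, 91.4% and 65.9%. Pooled values have no replicate error.

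Genes related to the 7 by family or pathway were taken from lists. Of 86 listed genes 73 were measured, and between Div8pos and Div8neg limma called 0 lower (1.94% of all genes were) and 0 higher (0.00595%); without any 1 of the 4 libraries, 1 was lower. At an unadjusted p under 0.05 there were 46, all lower, and 43 passed the adjusted threshold with less than 10 points. The shares of all genes at these thresholds without the size limit are not given here, and 1.94% is no measure of them. The median of the 73 genes was -2.96 points, beside -2.99 over all genes. In Div8pos against Div0, 13 of 73 were lower and 0 higher, beside 16% and 0% of all genes, with a median of -6.33 points beside -5.80.

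The lists of complement partners of C1qbp gave 2 of 4 (C1qc, Serping1), MARVEL-domain relatives of Myadm 1 of 12 (Mal2), pigment and lysosome genes for Gpnmb 0 of 11, iron genes for Trf 3 of 15 (Tfr2, Slc11a1, Cp), crystallins 5 of 9 (Crybb2, Cryba1, Cryaa, Cryab, Crygs), AXIN and WNT genes for Csrnp1 0 of 11, and endoplasmic reticulum chaperones for Calr4 2 of 11 (Dnajb11, Uggt1). Uggt1, the glucosyltransferase that checks glycoprotein folding, was at 68.8% and 66.3% in Div0 and 49.0% and 47.3% in Div8pos, a difference of -19.4 points (SE 1.27, limma adjusted p of 2.68e-06). Slc11a1, a metal transporter of phagosomes, differed by -14.8 points, Cryaa, an alpha-crystallin of the lens, by -13.4 points, and Tfr2, a transferrin receptor of the liver, by -13.0 points. The other 9 differed by -10.1 to -12.7 points, and 4 of them came to less than 10 points when 1 library was left out: Crybb2 (-9.93) and Crygs (-9.67) without Div8pos of host 197, Serping1 (-8.46) without Div0 of host 196, and Dnajb11 (-8.96 and -8.02) without Div0 of host 197 or Div8pos of host 196. Against Div8neg, Uggt1 differed by -9.42 points in Div8pos (limma adjusted p = 0.000519).

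Differences in the nearest measured genes were under 10 points. Of the 14 genes on either side, limma called 0 lower in Div8pos against Div8neg, where 1.94% of all genes were. Against Div0 it called 0, beside 16% of all genes. In these comparisons 6 and 11 had both an unadjusted and an adjusted limma p under 0.05 with less than 10 points. The shares of all genes at those thresholds without the size limit are not given here. Rpain and Malsu1, at 2.22% and 1.49% in Div0, could not fall by 10 points. Svs1, before Gpnmb, was at 73.0% and 73.4% in Div8neg and 65.1% and 66.7% in Div8pos, a difference of -7.31 points (limma adjusted p = 0.00463). Tpst2, after Crybb1 and 4657 bases from its last covered CpG, differed by -6.71 points (limma adjusted p = 0.000154). From the largest loss between Div8pos and Div8neg, Svs1 stood at place 1167 and Tpst2 at 1534 of all 16816 genes. Beside C1qbp, Rpain differed by -1.35 points and Dhx33 by -2.15; beside Myadm, Nlrp12 by -3.87; beside Calr4, Osbpl9 by -0.36 and Eps15 by -1.68. Malsu1, after Gpnmb, and Srprb and 1300017J02Rik, beside Trf, differed by -0.28, -1.03 and 0.27 points, Miat, before Crybb1, by -2.23, and Ttc21a and Xirp1, beside Csrnp1, by -1.87 and -2.53.

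The genes whose course was most like the mean of the 7 were found by the distance between profiles of 10 values, the differences from the same host's Div0 in the 5 other fractions of both hosts. They were Rasgrp1, a RAS activator of lymphocytes, at a distance of 7.67 points, Atp2b3, a plasma membrane calcium pump, at 8.39, Guca2b, the gut peptide uroguanylin, at 8.41, Dusp22, a phosphatase, at 8.46, and Gfpt1, the first enzyme of hexosamine synthesis, at 10.3. Of the 7 genes themselves Crybb1 was nearest to their mean, at 6.57 points, and C1qbp farthest, at 36.7. Rasgrp1 was at 79.7% in Div0, 68.6% in Div8neg and 49.5% in Div8pos, Atp2b3 at 99.2%, 94.6% and 65.3%, Guca2b at 87.8%, 78.3% and 60.3%, Dusp22 at 71.1%, 62.2% and 44.3%, and Gfpt1 at 96.0%, 89.2% and 71.1% (means of 2 hosts). As these genes were picked for their profiles, their levels carry no test.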

How the data were processed

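The deposited Sample table gives methylated and unmethylated read counts per CpG and library, and the same level as a fraction, per the file headers; the Group table gives the authors' pooled counts and fractions per sorted class (its 6 columns of pooled unmethylated reads were left aside, being sums over the hosts). Reads were aligned with Bismark and Bowtie2 to mm9, per the submitters' processing notes; no version is named there. PCR copies were not told apart by molecular identifiers, hence several reads can stem from 1 molecule and counting error is a lower limit.

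A gene's level is the unweighted mean percent methylation of all CpGs assigned to its symbol in the file (at least 5), tested with limma 3.58.1 in R 4.3.3 over 12 libraries with the fraction as the term. Single CpGs were tested with a quasi-binomial model of their counts, whose dispersion, moderated with limma, was 1.16 for every CpG. Both were tested on simulated data. P-values were adjusted by Benjamini-Hochberg over all genes or all CpGs. Replicates are 2 host animals, whose donor cells are not said to be separate. P-values of genes therefore measure the spread between hosts. The p-value of a CpG rests on its read counts and the shared dispersion of 1.16. The spread between hosts at that CpG does not enter it. Coverage of the hosts differed beyond sampling noise in every fraction (chi-square per degree of freedom of 1.22 or more). Equal host numbers mark the same animal, per the labels, while the correlation of host deviations over genes lay between -0.0138 and 0.0225 in 15 pairs of fractions. The fit with hosts as a block was an alternative.

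The 7 genes, the gene lists and the tests were chosen with earlier results of these data known. Named genes are the 7, their nearest measured genes, listed relatives that passed, and the 5 with the closest profiles; a marker and a neighbouring gene are not reported here. Python 3.11.15 and matplotlib 3.10.9 were used for the figures and sequences.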

Additional observations from a re-analysis of the deposited data

How the results depend on the processing

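No member was called in Div1, Div3, Div5 or the trend under any alternative run, leaving out single libraries included. With a host block, as host numbers pair the samples, the count of CpGs lower in Div5 went from 1 to 0, no call of a gene changed, and the other counts of CpGs moved by at most 3. With at least 20 reads in every library, which left 3 of the 7 genes and 64 of their 194 CpGs, the counts of lower CpGs were 0 in Div5, 2 in Div8neg, 27 in Div8pos and 20 between Div8pos and Div8neg, and the counts of lower genes were 0, 3 and 3 in the last 3 comparisons, with 6 relatives lower in Div8pos against Div0 and 1 against Div8neg. With no size limit, 6 members were lower in Div8neg, 61 and 43 relatives in Div8pos (against Div0 and Div8neg), and 11 and 6 neighbours. Within 5 kb of a start, 8 and 1 relatives and, against Div0, 1 neighbour were lower, and with summed reads 1 relative against Div8neg. Leaving out 1 library at a time gave 0 to 1 CpGs in Div5, 0 to 12 in Div8neg, 69 to 88 in Div8pos and 25 to 53 between the last 2, 1 relative between them in each case and 0 to 1 neighbours against Div0.

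Some small early differences changed sign; the cause was not tested. Leaving out 1 library gave ranges for Div1 of -0.044 to 3.30 points (C1qbp), -0.78 to 2.67 (Crybb1), -1.04 to 0.49 (Gpnmb), -0.42 to 0.96 (Myadm) and -0.016 to 1.80 (Trf), for Div3 of -0.85 to 2.50 (C1qbp), -0.59 to 2.86 (Crybb1), -2.72 to 0.44 (Gpnmb) and -0.48 to 3.46 (Myadm), for Div5 of -0.070 to 1.85 (Gpnmb) and -0.15 to 1.63 (Trf), and for the trend of -0.57 to 1.06 (Gpnmb) and -0.048 to 1.49 (Trf). Within these, Myadm gave -0.21 in Div1 without host 196 of that fraction. With summed reads, Gpnmb was at 2.22 in Div1 and 2.01 in Div3, and Myadm at -0.78, -1.64 and -1.88 in Div1, Div3 and Div5 and -1.84 in the trend. Within 5 kb, Crybb1 was at 0.012 and Trf at -0.31 in Div5, and Trf at -0.33 in the trend.

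A call needed at least 10 points for a gene and 20 for a CpG, so smaller early changes could not be called whatever their error. Runs numbered 46 at 200 bp and 31 at 1000 bp between CpGs.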
